A study of Mus musculus with 20 samples.

Results

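A list of 9 genes of homologous recombination was followed across 20 Affymetrix Mouse 430 v2 arrays of mouse pre-B cells: Brca1, Bard1, Palb2, Brca2, Xrcc2, Xrcc3, Rad51ap1, Rad54l and Blm. Members were all probe sets annotated to exactly 1 of these symbols, without regard to their values. Of the 9 genes, 8 had such a probe set, with 18 probe sets among the 44200 of the table, and Xrcc2 is named here without a value. The series covers 17944 genes in all. A probe set was tested if its signal came up to the array median in 2 or more samples. That left 9 probe sets of 6 members in the lines and 13 of the same number of members in bone marrow. Bard1 and Xrcc3 passed in neither set, and their values are given untested.

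The lines were pre-B cells transformed by v-abl, an oncogenic kinase, and held for 48 hours in 3 uM STI571 (imatinib), an inhibitor of that kinase. They formed 5 groups: lines lacking both Artemis and ATM (n = 2, each on 2 arrays that were averaged), Artemis-deficient lines expressing a dominant negative IkB (n = 3, called IkB-DN lines), Artemis-deficient lines (n = 3), wild type lines (n = 3) and RAG-2-deficient lines (n = 3), the stated control. Artemis opens the hairpin ends that the RAG recombinase leaves, ATM is the kinase that signals breaks, and dominant negative IkB blocks NF-kB. Purified bone marrow pre-B cells with an IgH transgene came from Artemis-deficient mice (n = 2) and RAG-1-deficient mice (n = 2), which served as controls. The labels give neither the promoter of the IgH transgene or of the dominant negative IkB, nor the age of the mice. The design text calls the replicates biological; whether a line is 1 clone and whether animals were pooled is not stated in the labels. By title and design text, the study asked which genes respond to RAG breaks.

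Homologous recombination repairs a double strand break by copying an intact sister chromatid, so it operates mainly in S and G2 phase. Breaks made by RAG in resting pre-B cells are instead joined by nonhomologous end joining. In the recombination pathway, BRCA1 with its partner BARD1 promotes resection of the ends, PALB2 links BRCA1 to BRCA2, and BRCA2 loads the recombinase on single-stranded DNA. RAD51AP1 and RAD54L help the loaded recombinase invade the duplex, XRCC2 and XRCC3 are paralogs of the recombinase, and BLM is a helicase that takes joint molecules apart. Many of these genes are transcribed mostly in dividing cells, and STI571 is known to stop v-abl lines in G1.

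Several facts of the series bear on the results. Atm on 1 of its probe sets lay at 5.44 and 5.48 (log2 level) in the Artemis- and ATM-deficient lines and between 6.42 and 7.65 in the other lines. Its other probe set gave 6.82 and 6.83 in the Artemis- and ATM-deficient lines and 7.0 to 7.62 in the others. These ranges include wild type replicate 3, whose title holds the letters ATM although its source is given as wild type. The titles of the RAG-2-deficient lines hold the letters Bcl, which the labels do not explain. Rag2 signal in those lines lay between 4.69 and 8.38, and since the deleted parts of the genes are not given in the labels, these probe sets check the genotypes only in part. Correlations across probe sets between the 3 IkB-DN samples (0.976 to 0.983) were near those of the technical arrays (0.982 and 0.984), while the other line groups gave 0.902 to 0.947. The design text counts the IkB-DN samples as biological replicates, and the call that rests on them is also given with the 3 averaged to 1. Of 11 B lineage markers, 10 were above the array median in all 14 line samples and 11 in all 4 marrow samples, among them Cd79a, Pax5 and Ebf1. Erythroid markers were below it in every line sample (0 of 6), while Csf1r, Zap70 and Irf8 of the other lists were above it in all of them. In marrow many markers of other cell types were above it in every sample. These were 10 of 12 for neutrophils and monocytes, 5 of 6 erythroid, 5 of 9 for T and NK cells and 5 of 7 for dendritic cells.

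In the lines the calls on these genes came to 1: Palb2 was higher in IkB-DN than in RAG-2-deficient lines. limma called 0 of the 6 tested members in each of the other 6 line comparisons, where 0.283% to 2.05% of all probe sets were called. There 0 to 2 members had an unadjusted p below 0.05, against 9.72% to 18.7% of all. An F test across the 5 groups called 0 members (2 unadjusted, Brca2 and Palb2), where 9.3% of all probe sets were called. In the marrow all 6 tested members were lower in Artemis-deficient than in RAG-1-deficient cells with no overlap between the groups, as were 25.5% of all probe sets. Of these members 0 were called, against 2.56% of all probe sets, and 2 had an unadjusted p below 0.05, against 16.9%. The levels below are log2(signal + 6) in the lines and log2(signal + 11) in the marrow, and differences on this scale understate the change of dim genes. A call is an adjusted p below 0.05 (limma, two-sided, Benjamini-Hochberg over all probe sets of the comparison), and a gene is represented by its brightest probe set.

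The bases just before the start site are shown for 4 members that behaved differently in the lines: Rad51ap1 and Rad54l, which spread most within groups, and Palb2 and Brca2, which had the lowest p-values of the F test. They are the 180 bases upstream of the RefSeq start (GRCm38.p6), printed 5′ to 3′ along the gene: chr6:126939588-126939767 (minus strand), chr4:116123691-116123870 (minus strand), chr7:122132947-122133126 (minus strand) and chr5:150522441-150522620 (plus strand). Capitals mark matches to the motifs given after the sequences.
Rad51ap1: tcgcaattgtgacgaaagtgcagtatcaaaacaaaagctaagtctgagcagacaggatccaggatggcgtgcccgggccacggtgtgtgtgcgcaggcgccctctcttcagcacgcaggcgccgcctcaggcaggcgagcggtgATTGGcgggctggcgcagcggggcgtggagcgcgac
Rad54l: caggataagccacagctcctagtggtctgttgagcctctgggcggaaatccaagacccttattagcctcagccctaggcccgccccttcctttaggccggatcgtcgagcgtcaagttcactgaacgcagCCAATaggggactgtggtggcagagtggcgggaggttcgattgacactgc
Palb2: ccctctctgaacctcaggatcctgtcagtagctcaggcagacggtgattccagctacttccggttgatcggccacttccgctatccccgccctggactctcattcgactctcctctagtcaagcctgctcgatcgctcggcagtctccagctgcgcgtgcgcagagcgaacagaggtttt
Brca2: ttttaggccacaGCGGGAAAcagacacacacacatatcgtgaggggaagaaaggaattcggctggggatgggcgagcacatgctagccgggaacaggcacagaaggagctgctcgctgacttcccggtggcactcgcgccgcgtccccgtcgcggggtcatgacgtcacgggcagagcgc
Entries were found for 8 of the 9 genes, and for Rad54l the first of 2 starts is shown. Motif classes of cell cycle promoters were searched in the 250 bases before the start on both strands: an E2F type (TTTCCCGC, TTTGGCGC, TTTGCCGC or TTTCGCGC), a CHR type and the CCAAT box. The CHR type was searched as TTTGAA. Its variant TTCGAA was searched as well. The CCAAT box was present in Brca1, Xrcc3, Rad54l, Rad51ap1 and Blm, and in 33.8% of all 32851 promoter windows of that length. In Rad51ap1 it began 36 and 230 bases upstream, read opposite to the direction of the gene. In Rad54l it began 50 and in Brca1 86 bases upstream, read along the gene. The E2F type was present in Brca2 and Bard1, against 1.86% of all windows. It began 168 bases upstream in Brca2, read opposite to the gene, and 209 bases upstream in Bard1, read along the gene. The CHR type occurred in Bard1 alone, against 17.1% of windows. Palb2 held none of these letters in this window. No match overlapped another, and matches describe the letters only.

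**Figure D1:**
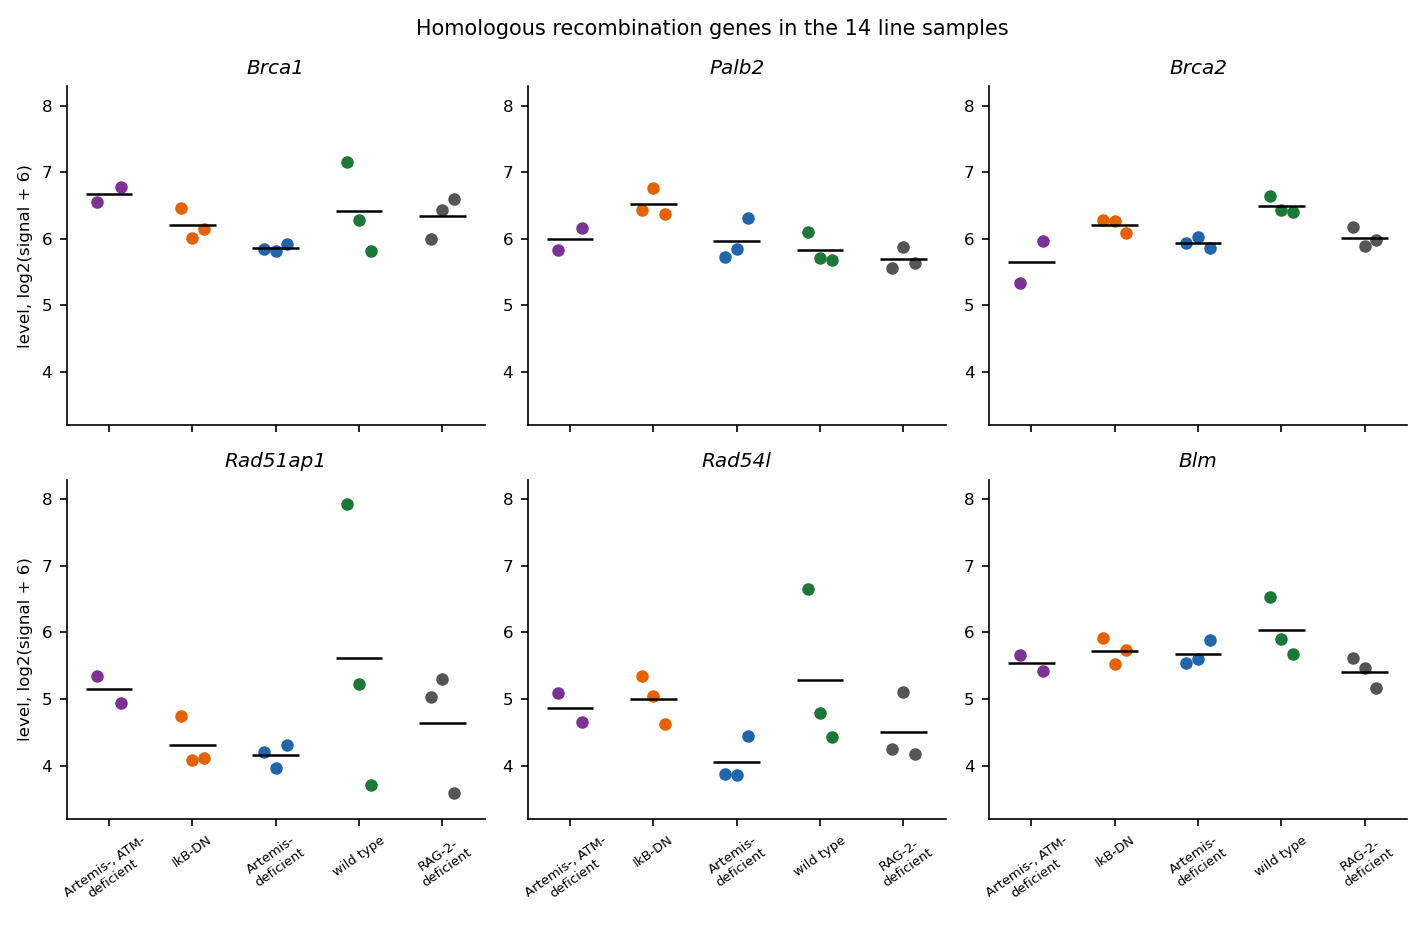
Log2 level of the 6 tested genes in the 14 line samples, with Artemis- and ATM-deficient, IkB-DN, Artemis-deficient, wild type and RAG-2-deficient lines from left to right; each point is a line and each bar a group mean. Palb2 in the 3 IkB-DN samples lies above every other sample, Brca2 is highest in the 3 wild type lines, and wild type replicate 1 is the top point for Brca1, Brca2, Rad51ap1, Rad54l and Blm.

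Brca1 (1424629_at), the ubiquitin ligase subunit that starts the pathway, was 6.56 and 6.78 in Artemis- and ATM-deficient lines. Its levels were 6.47, 6.01 and 6.15 in IkB-DN lines and 5.85, 5.82 and 5.93 in Artemis-deficient lines. They were 7.16, 6.29 and 5.82 in wild type lines, against 6.00, 6.43 and 6.60 in RAG-2-deficient lines. On this probe set the Artemis-deficient lines thus sat near the bottom in a narrow band, and the wild type lines spanned the whole range. On the other tested probe sets the Artemis-deficient lines spread more widely, from 3.90 to 4.81 (1424630_a_at) and from 3.72 to 4.46 (1451417_at). Between Artemis- and ATM-deficient and Artemis-deficient lines the groups did not overlap, with a difference of 0.80 ± 0.32 (SE, 95% interval 0.12 to 1.49) that was not called (adjusted p = 0.409). The other tested probe sets of Brca1 gave 0.76 ± 0.40 and 1.04 ± 0.39 in the same comparison. Against RAG-2-deficient lines the Artemis-deficient lines differed by -0.47 ± 0.28, again without overlap and without a call (adjusted p = 0.506), and the 1451417_at probe set by -0.91 ± 0.35 (adjusted p = 0.272). Wild type minus RAG-2-deficient was 0.08 ± 0.28 and turned to -0.28 without wild type replicate 1.

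Bard1 (1420594_at), the obligate partner of BRCA1, was near the bottom of the scale: 8 of the 14 line samples had an empty cell, and the other 6 lay between 2.70 and 3.21. Its values were 2.84 and 2.95 in Artemis- and ATM-deficient lines, 2.70 in the single IkB-DN sample with a value, 2.78 and 3.21 in wild type lines and 3.18 in 1 RAG-2-deficient line. No Artemis-deficient line had a value.

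Palb2 (1434808_at), the bridge between BRCA1 and BRCA2, was 5.84 and 6.16 in Artemis- and ATM-deficient lines and 6.43, 6.77 and 6.37 in IkB-DN lines. It was 5.73, 5.85 and 6.32 in Artemis-deficient and 6.11, 5.72 and 5.68 in wild type lines, against 5.57, 5.88 and 5.64 in RAG-2-deficient lines. Every IkB-DN sample was above every other line sample, and the other 4 groups overlapped one another. Palb2 rose by 0.82 ± 0.20 in IkB-DN over RAG-2-deficient lines (SE, 95% interval 0.39 to 1.26, 1.77-fold, n = 3 and 3, limma adjusted p = 0.0229). It was 1 call of 6 members where 9.96% of all 21826 probe sets were called, 5.07% of all as higher, so a single call is not far from that background. It was also the 1 member with an unadjusted p below 0.05, as 26.4% of all probe sets had, and the 1 member that was higher with no overlap, as 18.5% of all were. Counted as 1 sample, the IkB-DN lines left the difference at 0.82 ± 0.29 and the adjusted p at 0.329. The call was also lost without IkB-DN replicate 1 (adjusted p = 0.0596) or 2 (0.104) and without RAG-2-deficient replicate 1 (0.0754) or 3 (0.0664). Over Artemis-deficient lines, which lack Artemis too but carry no dominant negative IkB, Palb2 was 0.55 ± 0.20 higher, not called (adjusted p = 0.163). Artemis-deficient minus RAG-2-deficient lines gave 0.27 ± 0.20 (95% interval -0.16 to 0.70).

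IkB-DN lines also differed from RAG-2-deficient lines in markers of another lineage. Of 12 neutrophil and monocyte markers, 5 were tested and 3 were called higher in IkB-DN than in RAG-2-deficient lines. These were Itgam, an integrin of myeloid cells (4.33 ± 0.76), Lyz2, lysozyme (3.22 ± 0.44) and Elane, neutrophil elastase (0.95 ± 0.25). Of the 5 differences, 4 were positive and 1 was negative. That comparison called 9.96% of all probe sets, 5.07% of all as higher, and its 3 IkB-DN samples correlated about as closely as technical arrays. Over Artemis-deficient lines 1 of the 5, Lyz2, was called (3.40 ± 0.44), where 2.05% of all probe sets were called. Mpo, S100a8, S100a9, Cd14, Camp and Ltf were below the array median in every line sample, and Csf1r was above it in all of them. The log2 of the summed list was 9.51 to 9.79 in IkB-DN lines, against 7.51 to 8.26 in RAG-2-deficient lines. In Artemis- and ATM-deficient lines it was 8.40 and 9.96, so these overlapped the IkB-DN lines. G2 and M phase genes had 23 of 23 negative differences in IkB-DN minus RAG-2-deficient lines (median -1.03, 0 called, 0 unadjusted). The part of these genes in the Palb2 value was not tested.

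Brca2 (1419076_a_at), which loads the recombinase, was highest in wild type lines. It was 5.34 and 5.97 in Artemis- and ATM-deficient lines, 6.28, 6.27 and 6.09 in IkB-DN lines and 5.94, 6.03 and 5.87 in Artemis-deficient lines. The wild type lines had 6.65, 6.44 and 6.40, against 6.18, 5.90 and 5.98 in RAG-2-deficient lines. All 3 wild type values exceeded the other 11 samples. Wild type minus RAG-2-deficient lines was 0.48 ± 0.17 (SE, adjusted p = 0.256), and Artemis-deficient minus wild type lines was -0.55 ± 0.17 (adjusted p = 0.188). Both had an unadjusted p below 0.05, and neither was called. In the F test across the 5 groups Brca2 had the lowest adjusted p of the members, 0.0646, and Palb2 the next, 0.0897, where 9.3% of all probe sets were called.

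Rad51ap1 and Rad54l, the helpers of strand invasion, had the largest spread within groups of the 6 tested members. Rad51ap1 (1417938_at) was 5.35 and 4.94 in Artemis- and ATM-deficient lines, 4.75, 4.08 and 4.11 in IkB-DN lines and 4.20, 3.96 and 4.31 in Artemis-deficient lines. Wild type lines had 7.93, 5.22 and 3.71, against 5.03, 5.30 and 3.59 in RAG-2-deficient lines. The wild type group alone spanned more than all other lines together, and its mean was 5.62 ± 2.14 (SD, n = 3). Wild type minus RAG-2-deficient was 0.98 ± 0.81 (95% interval -0.78 to 2.74), and -0.18 without wild type replicate 1. Its other tested probe set, 1448899_s_at, gave 0.99 ± 0.70. The pooled SD within groups was 1.12 for Rad51ap1, against 0.19 for Brca2 and 0.24 for Palb2. The 2 technical arrays of a line differed by 1.28 and 1.41 for Rad51ap1, and by 0.09 and 0.15 for Brca2. Arrays of the same sample thus lay farther apart for Rad51ap1 than for Brca2.

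Rad54l (1450862_at), the motor protein of strand invasion, was 5.09 and 4.65 in Artemis- and ATM-deficient lines, 5.34, 5.05 and 4.63 in IkB-DN lines and 3.88, 3.86 and 4.44 in Artemis-deficient lines. Wild type lines had 6.65, 4.79 and 4.43, against 4.25, 5.10 and 4.18 in RAG-2-deficient lines. Artemis-deficient lines were the lowest group. They differed from wild type lines by -1.23 ± 0.50 (adjusted p = 0.335), and by -0.55 without wild type replicate 1. IkB-DN lines were 0.95 ± 0.50 above Artemis-deficient ones with no overlap (adjusted p = 0.332). Rad51ap1 and Rad54l reached the median of their array in 4 of 14 samples each, while Brca1, Palb2, Brca2 and Blm did so in all 14.

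Blm (1448953_at), the helicase mutated in Bloom syndrome in humans, was 5.66 and 5.42 in Artemis- and ATM-deficient lines, 5.91, 5.52 and 5.73 in IkB-DN lines and 5.54, 5.60 and 5.89 in Artemis-deficient lines. It was 6.53, 5.90 and 5.68 in wild type lines, against 5.62, 5.46 and 5.16 in RAG-2-deficient lines. Wild type and RAG-2-deficient lines did not overlap, and their difference of 0.63 ± 0.23 was not called (adjusted p = 0.262). Without wild type replicate 1 it was 0.38.

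Xrcc3 (1452748_at) was below the filter, at 3.53 and 4.56 in Artemis- and ATM-deficient lines, 5.10, 4.86 and 4.40 in IkB-DN lines and 3.64, 5.01 and 4.29 in Artemis-deficient lines. Wild type lines had 4.94, 4.67 and 4.61, against 4.58, 4.52 and 5.0 in RAG-2-deficient lines. On its other probe set (1437623_x_at, a type whose probes can match other transcripts) the IkB-DN lines had 4.23, 4.32 and 4.29, against 3.23, 2.68 and 3.92 in RAG-2-deficient lines. With no filter that difference was 1.00 ± 0.36 (adjusted p = 0.131), and the first probe set gave 0.09 ± 0.36.

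Ordered by group mean, Palb2 was highest in IkB-DN lines (6.52 ± 0.22, SD, n = 3) and then in Artemis- and ATM-deficient (6.00 ± 0.22, n = 2), Artemis-deficient (5.97 ± 0.31), wild type (5.84 ± 0.24) and RAG-2-deficient lines (5.70 ± 0.16). Past the first step, neighbours in that order were closer than the pooled SD of 0.24. Brca2 ran from wild type (6.50 ± 0.13) through IkB-DN (6.21 ± 0.11), RAG-2-deficient (6.02 ± 0.14) and Artemis-deficient (5.95 ± 0.08) to Artemis- and ATM-deficient lines (5.65 ± 0.45), and RAG-2-deficient and Artemis-deficient lines were closer than its pooled SD of 0.19. Group means of Brca1 spanned 0.80 with a pooled SD of 0.37, those of Rad54l 1.23 with 0.66 and those of Rad51ap1 1.46 with 1.12, and in these 3 genes no neighbouring groups differed by more than the pooled SD. Blm was highest in wild type lines (6.04 ± 0.44), and the other 4 groups, from 5.41 to 5.72, followed in steps below its pooled SD of 0.27.

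**Figure D2:**
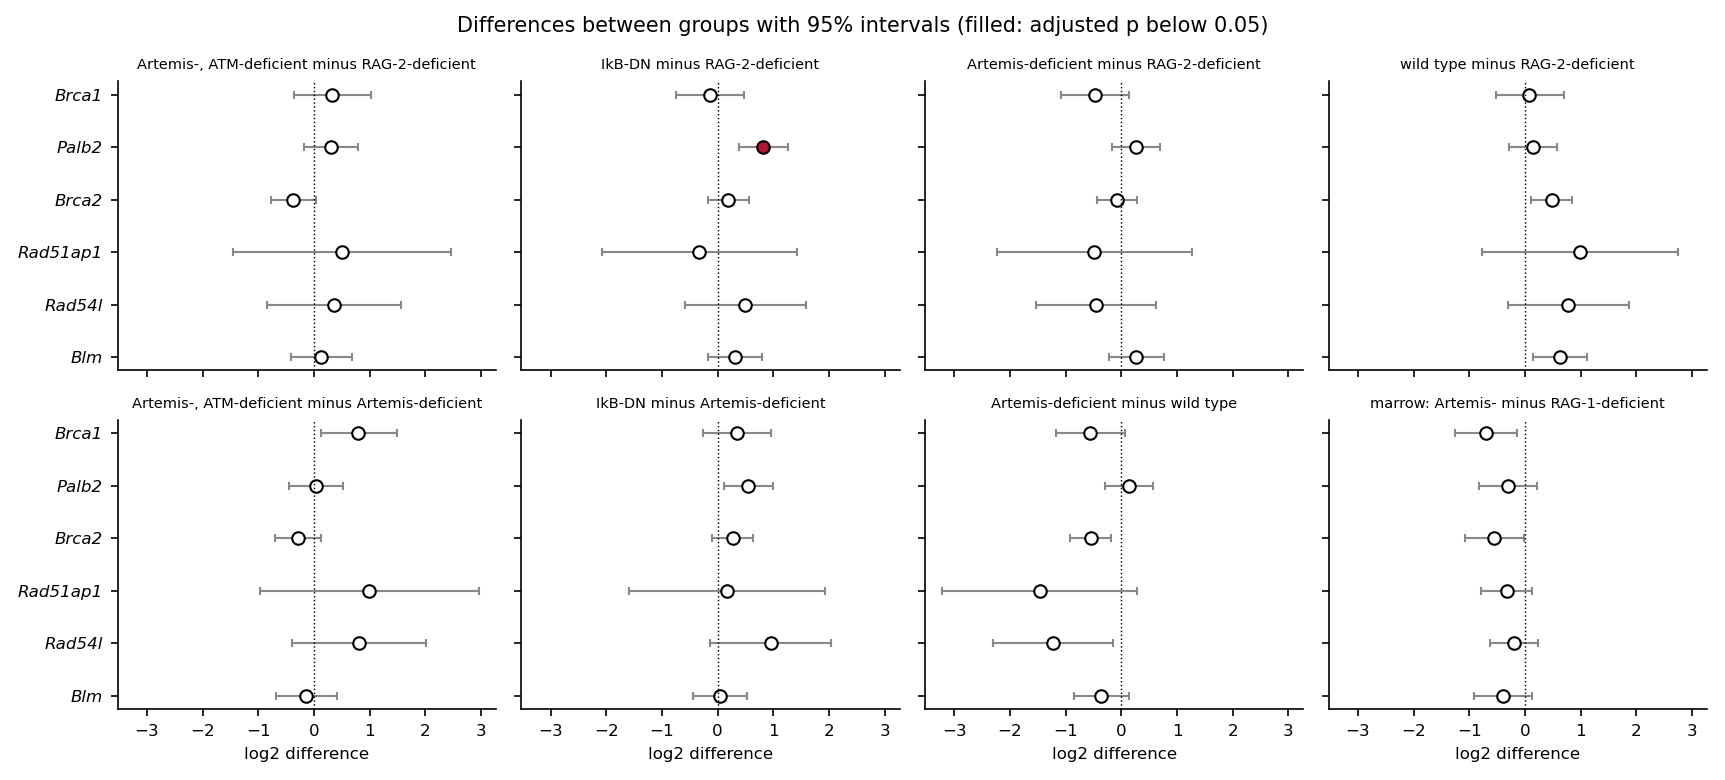
Log2 difference (x axis) of each tested gene (rows) in the 7 line comparisons and the marrow comparison, with 95% intervals from limma; the filled point has an adjusted p below 0.05. The single filled point is Palb2 in IkB-DN minus RAG-2-deficient lines (0.82), and the intervals of Rad51ap1 in the lines are the widest.

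The remaining line comparisons gave no member call. In Artemis- and ATM-deficient minus RAG-2-deficient lines 0 of 6 members were called (0 at an unadjusted p below 0.05), where 0.695% of all probe sets were called and 11.7% had such an unadjusted p, and no member's groups were apart. In Artemis-deficient minus RAG-2-deficient lines, the comparison of unrepaired breaks with none, 0 of 6 were called (0 unadjusted) against 1.15% of all (13.8% unadjusted). There 1 member, Brca1, was lower with no overlap, where 9.63% of all probe sets were. In wild type minus RAG-2-deficient lines 0 of 6 were called (2 unadjusted, Brca2 and Blm) against 0.832% of all (12.4% unadjusted), and the same 2 members were higher with no overlap, against 7.7% of all. The median difference of the members was 0.55 there, and that of all probe sets 0.00. Without wild type replicate 1 the 6 differences were 0.40 for Brca2, 0.38 for Blm, 0.10 for Rad54l, 0.00 for Palb2, -0.18 for Rad51ap1 and -0.28 for Brca1.

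In Artemis-deficient minus wild type lines 0 of 6 were called (2 unadjusted, Brca2 and Rad54l) against 0.503% of all (12.3% unadjusted), and 5 of the 6 differences were negative. On the brightest probe sets Brca2 alone was lower with no overlap, against 7.52% of all. The 1451417_at probe set of Brca1 was lower with no overlap too (-1.07 ± 0.35, limma adjusted p = 0.217). In Artemis- and ATM-deficient minus Artemis-deficient lines 0 of 6 were called (1 unadjusted, Brca1) against 0.283% of all (9.72% unadjusted). Brca1, Rad51ap1 and Rad54l were higher with no overlap, 3 of 6 against 13.3% of all probe sets, with differences of 0.80, 0.99 and 0.81. For Rad51ap1 and Rad54l this held only with the technical arrays averaged. The arrays of replicate 2 lacking Artemis and ATM read 4.24 and 5.65 for Rad51ap1 and 4.23 and 5.07 for Rad54l. The lower array of each pair lay within the Artemis-deficient range, which reached 4.31 for Rad51ap1 and 4.44 for Rad54l. G2 and M phase genes had 23 of 23 positive differences there (median 1.37, 0 called, 0 unadjusted), and their part in the values of the members was not tested. In IkB-DN minus Artemis-deficient lines 0 of 6 were called (1 unadjusted, Palb2) against 2.05% of all (18.7% unadjusted). Brca1, Palb2, Brca2 and Rad54l were higher with no overlap, 4 of 6 members and 4 of 9 probe sets, against 14.6% of all. The other tested probe sets of Brca1 overlapped there (0.35 ± 0.35 and 0.51 ± 0.35). The 3 IkB-DN samples correlated about as closely as technical arrays. Comparisons that share RAG-2-deficient or Artemis-deficient lines are not independent of one another.

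Across the lines, Rad51ap1 and Rad54l varied with the level of S phase genes, and the other 4 tested members did so little or not at all once wild type replicate 1 was left out. The S phase measure was the mean log2 deviation of 30 replication genes from their mean over the lines, and it was 1.31 in wild type replicate 1, 0.26 and -0.24 in the other wild type lines and between -0.42 and 0.22 elsewhere. As a description over 14 samples, Pearson's r with this measure was 0.92 for Rad51ap1 (Spearman's rho 0.77), 0.88 for Rad54l, 0.78 for Blm, 0.65 for Brca1, 0.54 for Brca2 and 0.09 for Palb2. Without wild type replicate 1 these became 0.71, 0.68, 0.35, 0.28, 0.24 and 0.04 in the same order. Without the 2 samples farthest out, Rad51ap1 had 0.73, Rad54l 0.59 and Brca1 0.16. Within groups, on deviations from group means with wild type replicate 1 included, r was 0.98 for Rad51ap1, 0.91 for Rad54l and 0.87 for Blm. It was 0.73 for Brca1, 0.45 for Palb2 and 0.23 for Brca2. Across samples, without regard to group, the relation thus rests largely on 1 line for Blm, Brca1 and Brca2. It holds without that line for Rad51ap1 and Rad54l, and is near 0 for Palb2. The CCAAT box occurred in the promoters of Rad51ap1 and Rad54l, and also in those of Brca1 and Blm, and not in those of Brca2 and Palb2. With the same measure on 23 G2 and M phase genes, r was 0.88 for Rad51ap1, 0.57 for Rad54l and 0.44 for Blm. It was 0.67 for Brca1, 0.07 for Brca2 and -0.25 for Palb2. Without wild type replicate 1 these became 0.82, 0.16, -0.09, 0.45, -0.37 and -0.39 in the same order. Without that line, Rad51ap1 thus varied with both lists, and Rad54l with the S phase list more than with the other. All points share their arrays and 5 groups of lines.

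**Figure D3:**
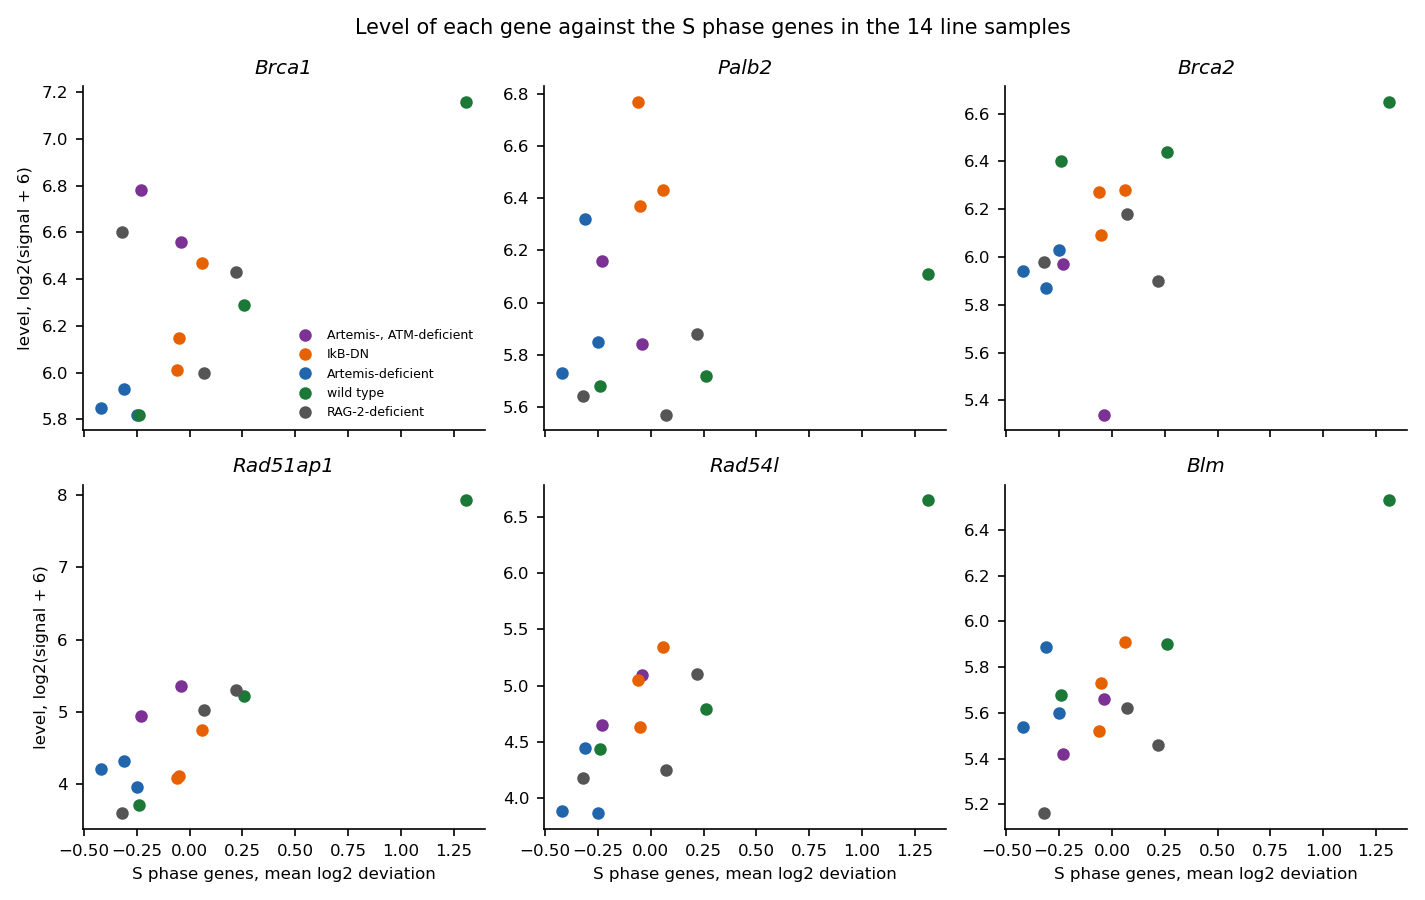
Log2 level of each tested gene (y axis, own scale per panel) against the mean log2 deviation of 30 S phase genes (x axis) in the 14 line samples, coloured by group. Wild type replicate 1 is the isolated point at 1.31, Rad51ap1 and Rad54l rise along the remaining points, and Palb2 does not (r = 0.09).

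Among members, Rad51ap1 and Rad54l were the most alike pair, with r = 0.84 over the 14 samples and 0.55 without wild type replicate 1. Brca1 had r = 0.74 with Rad54l and 0.09 with Brca2, and 0.52 and -0.33 without that replicate. Of 9420 other genes with a value in every line sample, the 5 most like the standardised mean of the members were Stmn1 (r = 0.936), a tubulin-binding protein, Atad5 (0.934), which unloads the replication clamp, the helicase subunit Mcm5 (0.926), the replisome scaffold Wdhd1 (0.919) and the ubiquitin ligase Rfwd3 (0.907). For Rad51ap1 they were the mitotic genes Prc1 (0.981) and Ncaph (0.977), and for Rad54l Mcm5 (0.917) and Atad5 (0.909). Brca1 was most like Kif20b (0.881) and Ska2 (0.842), both with mitotic roles. Blm was most like Stmn1 (0.913) and H2az2 (0.909), Palb2 like Tedc1 (0.902) and the homeobox gene Hoxb3 (0.893), and Brca2 like Caml (0.853) and Zmym4 (0.837). The r values of these most alike genes include wild type replicate 1.

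Other genes of the pathway gave few calls. The list held 42 further recombination genes with a probe set, of which 34 were tested in the lines. limma called 0 of 34 in 4 line comparisons: Artemis-deficient or wild type minus RAG-2-deficient lines (4 and 5 at an unadjusted p below 0.05), Artemis-deficient minus wild type (4) and Artemis- and ATM-deficient minus Artemis-deficient lines (3). In Artemis- and ATM-deficient minus RAG-2-deficient lines Wrn, a helicase of the same family as Blm, fell by 1.10 on the log2 scale (SE 0.21, adjusted p = 0.0346), as 1 of 34. In IkB-DN minus RAG-2-deficient lines 2 rose and 3 fell, where 9.96% of all probe sets were called, or 0.112% with the IkB-DN samples averaged to 1. The recombinase paralog Rad51b rose by 2.65 ± 0.54 (adjusted p = 0.0113) and the helicase Mcm9 by 0.72 ± 0.17. Rad50, of the complex that binds broken ends, fell by 1.26 (SE 0.34), the helicase Recql5 by 0.51 and Sem1, a small BRCA2-binding protein, by 0.42. Mcm9 was also 1.27 ± 0.17 higher in IkB-DN than in Artemis-deficient lines (adjusted p = 0.00629), 1 call of 34 where 2.05% of all probe sets were called, or 0.0232% with the IkB-DN samples averaged to 1.

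Of the 3 subunits of RPA, which coats single-stranded DNA before the recombinase, 0 were called in any line comparison by limma. At an unadjusted p below 0.05 there were 3 in IkB-DN minus RAG-2-deficient lines (2 positive and 1 negative), against 26.4% of all probe sets. There were 2 in IkB-DN minus Artemis-deficient lines (18.7% of all), 1 in Artemis- and ATM-deficient minus RAG-2-deficient lines (11.7% of all) and 0 elsewhere. The IkB-DN samples in these counts correlated about as closely as technical arrays. Among 12 tested Fanconi anaemia genes, which act with BRCA2 at crosslinks, Faap24 fell in IkB-DN lines, by 0.88 against RAG-2-deficient (adjusted p = 0.00373) and by 0.62 against Artemis-deficient lines (adjusted p = 0.0487). These comparisons called 9.96% and 2.05% of all probe sets, or 0.112% and 0.0232% with the IkB-DN samples averaged to 1. Of the S phase genes, the clamp loader subunit Rfc3 fell by 1.06 and the helicase subunit Mcm6 by 1.40 in Artemis-deficient against RAG-2-deficient lines, as 2 of 31 where 1.15% of all probe sets were called. Both were also called lower in Artemis-deficient than in wild type lines, with differences of -1.60 for Rfc3 and -1.56 for Mcm6. Against RAG-2-deficient lines Rfc3 was called lower as well in Artemis- and ATM-deficient lines (-1.19) and in IkB-DN lines (-1.22). In Artemis-deficient minus RAG-2-deficient lines the S phase and G2/M lists held 24 of 31 and 22 of 23 negative differences.

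In bone marrow, whose levels cannot be set against those of the lines, every tested member was lower in Artemis-deficient than in RAG-1-deficient cells. Brca1 was 7.86 and 8.27 in Artemis-deficient marrow, against 9.0 and 8.53 in RAG-1-deficient marrow. The groups were apart by a small gap, and the difference was -0.70 ± 0.24 (95% interval -1.26 to -0.14, n = 2 and 2, limma adjusted p = 0.196). On the 1424630_a_at probe set of Brca1 the groups overlapped (-0.31 ± 0.33). Brca2 was 7.19 and 7.63 in Artemis-deficient marrow, against 7.94 and 7.99 in RAG-1-deficient marrow, with a difference of -0.55 ± 0.23 (adjusted p = 0.277). These 2 members had an unadjusted p below 0.05, as 16.9% of all probe sets did, and 0 of 6 were called where 2.56% of all were. That share ranged, on leaving out 1 sample, from 0% without RAG-1-deficient replicate 1 and 0.387% without replicate 2 of that group to 6.64% without Artemis-deficient replicate 2, and it was 0.0717% with no intensity trend. The differences stayed negative on leaving out any 1 sample and shrank most without RAG-1-deficient replicate 1 for Brca1 (to -0.46), Blm (-0.21), Rad51ap1 (-0.13) and Rad54l (-0.07), and without Artemis-deficient replicate 1 for Brca2 (-0.33). For Palb2 the smallest was -0.21, without RAG-1-deficient replicate 2.

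Palb2 had 6.88 and 6.89 in Artemis-deficient marrow, against 7.09 and 7.28 in RAG-1-deficient marrow (-0.30 ± 0.22). Rad51ap1 had 8.75 and 8.69 in Artemis-deficient marrow, against 9.25 and 8.85 in RAG-1-deficient marrow (-0.33 ± 0.20). In both genes the dimmer RAG-1-deficient sample still lay above both Artemis-deficient samples. For Blm the values were 7.63 and 7.92 in Artemis-deficient marrow, against 8.35 and 7.99 in RAG-1-deficient marrow (-0.39 ± 0.22). Rad54l had 8.56 and 8.69 in Artemis-deficient marrow, against 8.94 and 8.69 in RAG-1-deficient marrow (-0.20 ± 0.18), with the nearest 2 samples equal after rounding. Of the untested genes, Bard1 had 4.27 and 4.37 in Artemis-deficient marrow, against 5.11 and 4.93 in RAG-1-deficient marrow, and with no filter its difference was -0.70 ± 0.32 (adjusted p = 0.398). Xrcc3 differed by probe set. On 1437623_x_at, the brighter one in marrow, it had 6.00 and 5.42 in Artemis-deficient marrow, against 5.77 and 5.67 in RAG-1-deficient marrow, and overlapped. On 1452748_at it had 4.87 and 5.33 in Artemis-deficient marrow, against 6.09 and 5.37 in RAG-1-deficient marrow, with no overlap and a difference of -0.63 ± 0.38 (adjusted p = 0.541 with no filter).

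**Figure D4:**
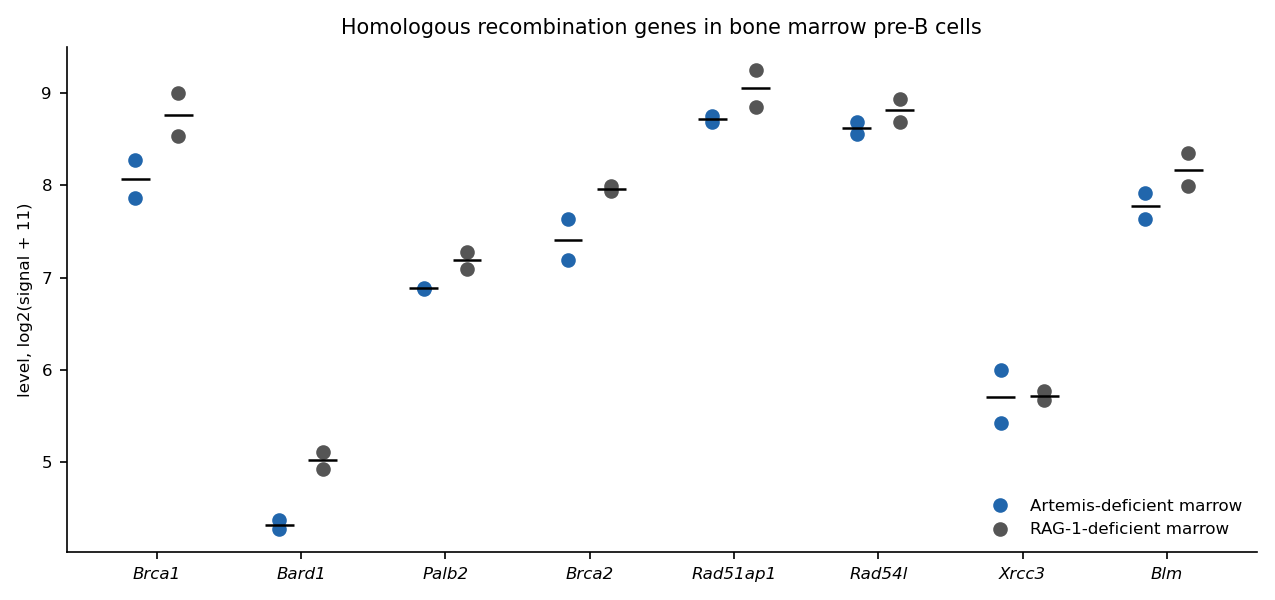
Log2 level of 8 recombination genes in Artemis-deficient marrow (left of each pair) and RAG-1-deficient marrow; each point is a sample, bars are group means. On the brightest probe set of each gene, plotted here, all except Xrcc3 (1437623_x_at) lie lower in Artemis-deficient marrow, by 0.20 (Rad54l) to 0.70 (Brca1), and the 2 Rad54l groups all but touch.

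Of the 13 tested marrow probe sets of these genes, 13 had a negative difference, as 50.7% of all probe sets did, and 11 did not overlap, against 25.5% of all that were lower without overlap. These probe sets read 6 genes on the same 4 samples, so they are not independent of one another. The median difference of the 6 genes was -0.36, and that of all probe sets -0.01. The other recombination genes were called in 0 of 36 (3 at an unadjusted p below 0.05), with 24 negative and a median of -0.12. S phase genes had 32 of 35 negative differences (median -0.24) and G2/M genes 23 of 23 (median -0.32), with 0 called in either list (7 and 4 unadjusted).

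Markers of other cell types moved in the same marrow samples. B lineage markers were lower in 11 of 11 (median -1.10), with Rag1, a recombinase gene itself targeted in the control mice (-2.0 ± 0.22), and Vpreb1, of the surrogate light chain (-1.33 ± 0.23), called. The log2 of the summed B lineage list was 13.78 and 14.38 in Artemis-deficient marrow, against 14.98 and 15.16 in RAG-1-deficient marrow. That of the dendritic cell list was 13.74 and 14.08 in Artemis-deficient marrow, against 11.94 and 12.49 in RAG-1-deficient marrow. Dendritic cell markers were called higher in 5 of 5 tested of 7, among them Siglech (2.58 ± 0.38) and Bst2 (2.51 ± 0.39), while Zbtb46 and Xcr1 were below the array median in every sample. Cd8b1 of the T cell list (3.68 ± 0.52) and Lyz2 of the neutrophil and monocyte list (1.05 ± 0.16) were called higher. Neutrophil and monocyte differences were positive in 11 of 12 (median 0.56, 1 called, 7 unadjusted). Of these markers, 10 were above the array median in every marrow sample. The log2 of their sum was 16.05 and 16.14 in Artemis-deficient marrow, against 15.26 and 15.74 in RAG-1-deficient marrow. Of the T and NK cell list, Cd3e was below the array median throughout. Cd3d, Cd8a, Zap70, Ncr1 and Thy1 were above it in every sample. Of 6 erythroid markers, Klf1, Alas2, Epor, Car1 and Slc4a1 were above the median in every marrow sample and Hba-a1 in none. Erythroid differences were negative in 4 of 5 (median -0.66, 0 called, 3 unadjusted), and the log2 of the summed list was 11.04 and 11.45 in Artemis-deficient marrow, against 11.81 and 11.89 in RAG-1-deficient marrow. The part of all these markers in the lower levels of recombination genes was not tested, and fewer dividing pre-B cells in a sample cannot be told apart from less transcript per cell.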

How the data were processed

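RNA of 20 samples was hybridised to Affymetrix Mouse 430 v2 arrays and read with the GeneChip Operating Software, per the labels. The deposited value table holds log10 signals. The base was inferred from the values, and no source used here gives the summary method, background correction or scaling. The median signal of a line array was 26.8 to 27.7, and that of a marrow array 46.9 to 47.8, and 14.7% of cells are empty. The number of arrays limits the precision.

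Values were turned back to signals and then to log2(signal + 6) for line arrays and log2(signal + 11) for marrow arrays, the pseudocounts being the rounded 25th percentile of signals. Technical arrays of a line lacking Artemis and ATM entered as their mean, giving 14 line and 4 marrow samples. Of 44200 probe sets, 34294 name 1 gene, 916 several and 8990 none, per the platform annotation. Probe sets at or above the array median in 2 or more samples were kept (21921 in the lines, 19520 in the marrow). limma 3.58.1 in R 4.3.3 fitted each set alone (lmFit, eBayes with trend, Benjamini-Hochberg per comparison), and the script was tested on simulated data. Tables, promoter windows and figures were made with Python 3.11.15, pandas 2.3.3, numpy 2.4.6, scipy 1.17.1 and matplotlib 3.10.9. The gene is represented by its brightest probe set on average over the set, and every member is named. The genes named as most alike are the 5 with the highest Pearson correlation with the mean of the members and the top 2 for each member, and up to 4 called list genes per comparison, by smallest adjusted p, are named. Further list genes were named after their values were seen. The members and lists were chosen with earlier results of these data known. Alternatives covered the pseudocount, filter, scaling, variance model, samples in the fit, technical arrays, the IkB-DN samples averaged, and each replicate left out.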

Additional observations from a re-analysis of the deposited data

How the results depend on the processing

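Of 1031 recomputed differences over 48 gene and comparison pairs, 1012 kept their direction and side of the threshold, 5 lost the call, 0 gained one and 14 changed direction, the last all on leaving out 1 replicate. The call on Palb2 in IkB-DN minus RAG-2-deficient lines was lost with the IkB-DN samples averaged to 1 (0.82, adjusted p = 0.329), which left 0 members called in a comparison that then called 0.112% of probe sets. Leaving out 1 replicate gave 0.70 to 0.91 for it (limma adjusted p over all alternatives 0.0145 to 0.329) and 0 to 1 members called. The F test called 0 to 1 members, with Palb2 called without Artemis-deficient replicate 3 and Brca2 without Artemis- and ATM-deficient replicate 2. Each of these fits held fewer samples, and the cause of the changed calls was not tested.

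The differences that changed direction ran, on leaving out 1 replicate, as follows. Against RAG-2-deficient lines, Brca2 in Artemis-deficient lines ran from -0.13 to 0.00, Brca1 in wild type lines from -0.28 to 0.38 and Rad51ap1 in wild type lines from -0.18 to 1.93. Rad51ap1 ran from -0.02 to 0.84 in Artemis- and ATM-deficient and from -0.85 to 0.00 in IkB-DN lines. Palb2 ran from -0.05 to 0.26 in Artemis-deficient minus wild type lines. In Artemis- and ATM-deficient minus Artemis-deficient lines Palb2 ran from -0.12 to 0.21 and Brca2 from -0.61 to 0.03. In IkB-DN minus Artemis-deficient lines Rad51ap1 ran from -0.06 to 0.28 and Blm from -0.05 to 0.15. Under the stricter filter no member was left to test in the lines.

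No paired analysis was possible because the labels give no replicate numbers shared between groups. Genes below the array median, as Rad51ap1 and Rad54l were in most lines, are limited by signal over background, and each group has 2 or 3 samples. With these sizes the SE of a difference between groups of 3 was 0.17 for Brca2 and 0.81 for Rad51ap1.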
